A study of Rattus norvegicus with 15 samples.

Results

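Enzymes of cholesterol synthesis and Insig1, a sensor of the same pathway, were followed in epididymal fat, the visceral depot beside the testis, of diet-induced obese and lean rats. The 8 genes listed were Idi1, Fdps and Hmgcs1 of the mevalonate arm, Fdft1, Sqle, Cyp51 and Dhcr7 of the sterol arm, and Insig1. A gene was read from the probe sets, groups of probes against 1 transcript, whose platform annotation names that gene alone, which held for 7 of the 8 genes in 10 of 31099 probe sets. Hmgcs1 was named alone by no probe set in the annotation used here and was not analysed. A filter on low signal kept 6 of the 7 genes, in 9 of the 10 probe sets, among 10514 genes in 18625 probe sets in all; the single probe set of Sqle lay below it.

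The obese group held 7 male Long-Evans rats fed a diet high in fat and sucrose since weaning, and the lean group held 8 male rats of the same colony fed regular chow. All were shipped at 14 weeks of age and given 2 weeks to acclimate. They were housed singly on 12 hours of light, from 10 in the evening, and 12 hours of dark, with food and water freely available. They were killed in the fed state at 26 weeks of age, by decapitation at 9 in the morning, within the light hours. Each rat gave 1 Affymetrix RAE230_2 array of whole fat tissue. Diet and obesity changed together and cannot be told apart, nor can fewer cells of a type and less RNA per cell in such bulk tissue.

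Obese rat 1 and lean rat 7 gave arrays that resembled each other more than any others did, with a correlation of 0.978 over all probe sets on the log2 scale, against 0.957 for the next pair. The labels place them in different groups, and whether both labels are right cannot be told from these data. Values are therefore given with all 15 arrays and with the 13 that remain without this pair, 6 obese and 7 lean. In all 15 arrays 9 of 9 adipocyte markers passed the filter, and the mean deviation of these markers ran from -0.37 to 0.40 on the log2 scale in obese rats and from -0.23 to 0.16 in lean rats. All 12 macrophage markers passed it, with a mean deviation from -0.27 to 1.13 in obese and from -0.58 to 0.06 in lean rats. The lowest obese value, -0.27, was that of obese rat 1 and lay inside the lean range. Over 10 lipogenic SREBP1 target genes, described below, obese rat 1 had a mean deviation of -0.11, also inside the lean range of -0.31 to -0.06. The 6 obese rats left without the pair ran from 0.10 to 0.34 over those genes. Lean rat 7 had -0.26 over the macrophage markers and -0.10 over those genes. Without the pair the macrophage mean ran from 0.17 to 1.13 in obese rats and from -0.58 to 0.06 in lean rats. Of 7 epididymal epithelium markers only 1 had a probe set, and it did not pass the filter, so these arrays say little about such cells. Of 8 testis markers, 2 passed it. The log2 ratio of 3 prime to 5 prime Gapdh signal, a sign of RNA degradation, averaged 0.77 ± 0.28 in the 7 obese rats, against 1.05 ± 0.26 in the 8 lean rats (SD; exact two-sided permutation p = 0.0746), and 0.72 ± 0.28 (n = 6) and 1.05 ± 0.28 (n = 7) without the pair (exact permutation p = 0.0589).

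Cells build cholesterol from acetyl-CoA through mevalonate and farnesyl diphosphate, which the sterol arm joins into squalene and closes into the sterol rings. When membrane sterol is low, the escort protein SCAP carries SREBP2 from the endoplasmic reticulum to the Golgi, where proteases release the part that enters the nucleus and turns on nearly every gene of the route. When sterol is plentiful, the INSIG proteins hold SCAP back, and INSIG1 is itself a product of an SREBP target gene. Fat tissue is a large store of the body's free cholesterol, most of it taken up from lipoproteins, with some made in the fat cells.

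SREBP2 acts on promoters through short sterol elements that usually sit beside boxes for the factors NF-Y and Sp1. The promoters of Idi1, Fdps, Cyp51 and Insig1 are shown because the brighter or single probe sets of these 4 genes were each highest in the same obese rat. They are RefSeq sequences of build GRCr8, from 250 bases before the gene start to 50 bases from it on, printed 5′ to 3′ on the gene's strand. Capitals mark the letters searched on both strands: the sterol element TCACNCCAC, its variant TCACNCGAG, the NF-Y box CCAAT, the Sp1 box GGGCGG and the E-box CACGTG; the variant was added after the promoters were seen.
Idi1, chr17:66547475-66547774 on the minus strand: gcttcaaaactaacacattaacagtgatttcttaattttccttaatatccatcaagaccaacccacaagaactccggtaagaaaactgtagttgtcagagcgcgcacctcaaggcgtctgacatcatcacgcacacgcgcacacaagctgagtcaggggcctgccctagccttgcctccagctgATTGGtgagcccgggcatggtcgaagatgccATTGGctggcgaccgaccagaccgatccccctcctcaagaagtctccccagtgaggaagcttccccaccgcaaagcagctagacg
Fdps, chr2:176804767-176805066 on the minus strand: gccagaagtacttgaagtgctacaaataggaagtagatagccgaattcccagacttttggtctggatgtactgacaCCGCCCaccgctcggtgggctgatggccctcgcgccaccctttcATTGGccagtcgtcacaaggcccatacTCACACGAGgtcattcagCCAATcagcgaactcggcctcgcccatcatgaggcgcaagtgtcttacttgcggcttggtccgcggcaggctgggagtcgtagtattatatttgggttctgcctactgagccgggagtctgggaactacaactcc
Cyp51, chr4:30991443-30991742 on the plus strand: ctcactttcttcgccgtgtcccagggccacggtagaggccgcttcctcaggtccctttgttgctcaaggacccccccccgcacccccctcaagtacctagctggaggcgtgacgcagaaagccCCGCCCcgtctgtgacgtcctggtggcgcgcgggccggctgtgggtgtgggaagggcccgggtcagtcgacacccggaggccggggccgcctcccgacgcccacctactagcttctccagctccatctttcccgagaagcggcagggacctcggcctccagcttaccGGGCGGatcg
Insig1, chr4:8057720-8058019 on the minus strand: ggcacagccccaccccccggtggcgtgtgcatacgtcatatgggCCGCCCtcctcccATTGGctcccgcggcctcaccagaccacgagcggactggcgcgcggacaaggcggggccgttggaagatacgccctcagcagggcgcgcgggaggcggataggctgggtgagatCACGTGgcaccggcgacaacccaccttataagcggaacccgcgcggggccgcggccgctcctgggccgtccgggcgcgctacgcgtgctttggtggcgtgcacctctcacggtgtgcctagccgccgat

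Of the 8 listed genes, 6 had a promoter in the RefSeq table. The letters TCACNCCAC were in 0 of these 6 windows and in 1.12% of all 33469 promoters of the table. The variant TCACNCGAG, added after the promoters were seen, was in the Fdps window alone among the 6. It read TCACACGAG at -103 to -95 from the gene start, with NF-Y boxes at -130 to -126 and at -85 to -81. The variant was in 0.415% of all promoters, a share that cannot be set against windows seen before it was chosen. The NF-Y box was in 4 of 6 windows, among them Idi1 with boxes at -66 to -62 and -35 to -31, against 37.5% of all promoters. The Sp1 box was in 5 of 6 windows against 33.1% of all promoters, and the E-box was in the Insig1 window alone, at -79 to -74, against 6.42%. These matches describe the letters in the windows and were not tested as sites.

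None of the 6 genes above the filter passed an adjusted p of 0.05 with 15 or with 13 arrays (limma), and the groups overlapped in each of them. Cyp51, Fdps, Idi1 and Insig1 had log2 fold changes from 0.34 to 0.42 with 15 arrays and from 0.38 to 0.48 with 13, Dhcr7 had 0.15 and 0.18, and Fdft1 had -0.06 and -0.07. Fold changes are differences, obese minus lean, of log2(signal + 79.9), with the 10th percentile of the signals as the added constant; this scale understates the change of dim genes. At an adjusted p of 0.05, 0% of 10514 genes were called with 15 arrays and 1.1% with 13. An unadjusted p under 0.05 with a higher value in obese rats was seen for 1 of the 6 genes with 15 arrays (Cyp51; background 7.75% of all genes) and for 2 of 6 with 13 arrays (Cyp51 and Fdps; background 8.54%); a lower value was seen for 0 of 6, against 6.96% and 8.17% of all genes. Among the 9 probe sets the same 1 and 2 were higher, against 6.74% and 7.59% of all 18625 probe sets, and 0 of 9 passed after adjustment, against 0% and 1.01%. Groups without overlap made up 0.124% (obese above) and 0.0571% (obese below) of all genes with 15 arrays, and 1.15% and 0.438% with 13. A positive log2 fold change was seen for 5 of 6 genes in both, against 46.9% of all genes with 15 arrays and 46.7% with 13. Their median was 0.34 with 15 and 0.38 with 13 arrays, against -0.01 and -0.02 over all genes.

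**Figure D1:**
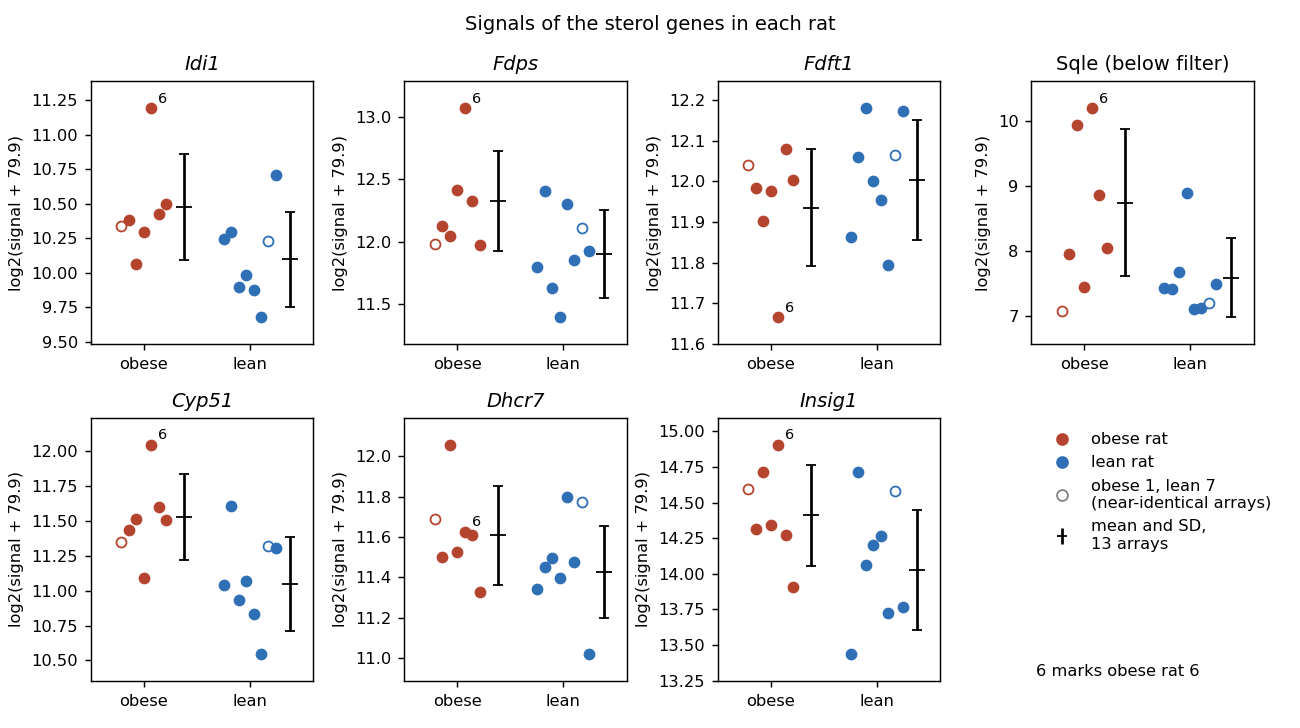
Signal of the brightest probe set of each gene in every rat, as log2(signal + 79.9), in obese (left) and lean (right) rats; open circles are the near-identical arrays of obese 1 and lean 7, and bars give the mean and SD of the other 13 arrays. Obese rat 6, marked 6, is the highest obese rat in Idi1, Fdps, Sqle, Cyp51 and Insig1 and the lowest in Fdft1, and the groups overlap in every panel.

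In the mevalonate arm, Idi1 (Entrez gene 89784) encodes the isomerase that balances the pair of five-carbon building blocks. The signal of its brighter probe set had a lowest, median and highest value of 991, 1255 and 2263 in the 7 obese rats, against 740, 1028 and 1594 in the 8 lean rats. The highest obese rat was rat 6, and the next highest had 1365. Of the 7 obese rats, 6 lay above the lean median, and lean rat 8 lay above every obese rat but 1. The log2 fold change was 0.34 ± 0.16 with 15 arrays (SE; 95% confidence interval -0.0026 to 0.69; limma adjusted p = 0.326) and 0.38 ± 0.19 with 13 (interval -0.02 to 0.77; adjusted p = 0.3). The dimmer probe set of Idi1 had 0.17 ± 0.17 with 15 arrays and 0.16 ± 0.18 with 13 (limma adjusted p = 0.65 and 0.678). Without obese rat 6 the brighter probe set had 0.22 and 0.24, and 0.13 and 0.11 once the fit took in the Gapdh ratio.

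Fdps (83791) encodes the synthase of farnesyl diphosphate, the last step shared by sterols and the other isoprenoids. Its signal had a lowest, median and highest value of 3944, 4384 and 8515 in the 7 obese rats, against 2613, 3718 and 5338 in the 8 lean rats. All 7 obese rats lay above the lean median, obese rats 5 and 6 lay above every lean rat, and 5 of 8 lean rats lay below every obese rat. The log2 fold change was 0.35 ± 0.17 with 15 arrays (SE; interval -0.02 to 0.72; limma adjusted p = 0.345) and 0.42 ± 0.19 with 13 (interval 0.02 to 0.83; adjusted p = 0.262). Without obese rat 6 the values were 0.22 and 0.28.

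In the sterol arm, Fdft1 (29580) encodes squalene synthase, which commits farnesyl diphosphate to sterols. Its brighter probe set had a lowest, median and highest signal of 3170, 3972 and 4249 in the 7 obese rats, against 3474, 4102 and 4559 in the 8 lean rats. Obese rat 6, the highest rat in Fdps, was the lowest of all rats in Fdft1. The log2 fold change was -0.06 ± 0.09 with 15 arrays (SE; interval -0.25 to 0.13; limma adjusted p = 0.784) and -0.07 ± 0.10 with 13 (interval -0.28 to 0.15; adjusted p = 0.762), and centring each array on its median turned it to 0.04 and 0.05. Without obese rat 6 it was -0.01 in both. The dimmer probe set had -0.11 and -0.10 (limma adjusted p = 0.672 and 0.655).

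Sqle (29230) encodes squalene epoxidase, which adds oxygen to squalene ahead of ring closure. Its mean of 7.99 on the log2 scale over 15 arrays lay under the filter at 9.25, so it entered no count above. The lowest, median and highest signals were 54.5, 185 and 1093 in the 7 obese rats, against 57.6, 91.05 and 392 in the 8 lean rats. Obese rats 3 and 6, at 904 and 1093, lay above every lean rat, while obese rat 1, at 54.5, lay below every lean rat. In the fit of all 31042 probe sets without the filter, Sqle had a log2 fold change of 0.96 ± 0.44 with 15 arrays (SE; interval 0.04 to 1.89; limma adjusted p = 0.405) and 1.15 ± 0.44 with 13 (interval 0.20 to 2.10; adjusted p = 0.277).

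Cyp51 (25427) encodes lanosterol demethylase, the first enzyme to trim the closed sterol ring. Its brighter probe set had a lowest, median and highest signal of 2100, 2827 and 4150 in the 7 obese rats, against 1416, 2051 and 3043 in the 8 lean rats. All 7 obese rats lay above the lean median, and 5 of 8 lean rats lay below every obese rat, while lean rat 2 lay above every obese rat but rat 6. The log2 fold change was 0.42 ± 0.15 with 15 arrays (SE; interval 0.10 to 0.75; limma adjusted p = 0.206) and 0.48 ± 0.17 with 13 (interval 0.12 to 0.84; adjusted p = 0.158), or 0.27 and 0.31 once the fit took in the Gapdh ratio. The dimmer probe set had 0.31 ± 0.22 and 0.30 ± 0.24 (SE; limma adjusted p = 0.523 and 0.55). The ending of the brighter probe set's name marks probes that match more than one transcript, so related sequences may share its signal.

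Dhcr7 (64191) encodes the reductase of the last step to cholesterol. Its signal had a lowest, median and highest value of 2490, 3044 and 4180 in the 7 obese rats, against 1999, 2748 and 3479 in the 8 lean rats. Obese rat 3 alone lay above every lean rat, and 6 of 7 obese rats lay above the lean median. The log2 fold change was 0.15 ± 0.12 with 15 arrays (SE; interval -0.11 to 0.41; limma adjusted p = 0.585) and 0.18 ± 0.13 with 13 (interval -0.10 to 0.47; adjusted p = 0.506). Without obese rat 3 it was 0.08 and 0.09, without lean rat 8 it was 0.09 and 0.11, with array weights 0.07 and 0.09, with median centring 0.25 and 0.30, and 0.26 and 0.33 once the fit took in the Gapdh ratio.

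Insig1 (64194) encodes the protein that keeps SCAP in the endoplasmic reticulum and is itself induced by SREBPs. Its signal had a lowest, median and highest value of 15257, 20746 and 30606 in the 7 obese rats, against 11020, 17890 and 26771 in the 8 lean rats. Obese rats 3 and 6 lay above every lean rat, lean rat 2 came next, and lean rats 1, 6 and 8 lay below every obese rat. The near-identical arrays had 24685 in obese rat 1 and 24457 in lean rat 7. The log2 fold change was 0.34 ± 0.19 with 15 arrays (SE; interval -0.05 to 0.74; limma adjusted p = 0.384) and 0.39 ± 0.20 with 13 (interval -0.04 to 0.81; adjusted p = 0.325). It was 0.21 and 0.26 under array weights and 0.27 and 0.29 without obese rat 6. With median centring it was 0.45 and 0.50, and 0.47 and 0.54 once the fit took in the Gapdh ratio.

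**Figure D2:**
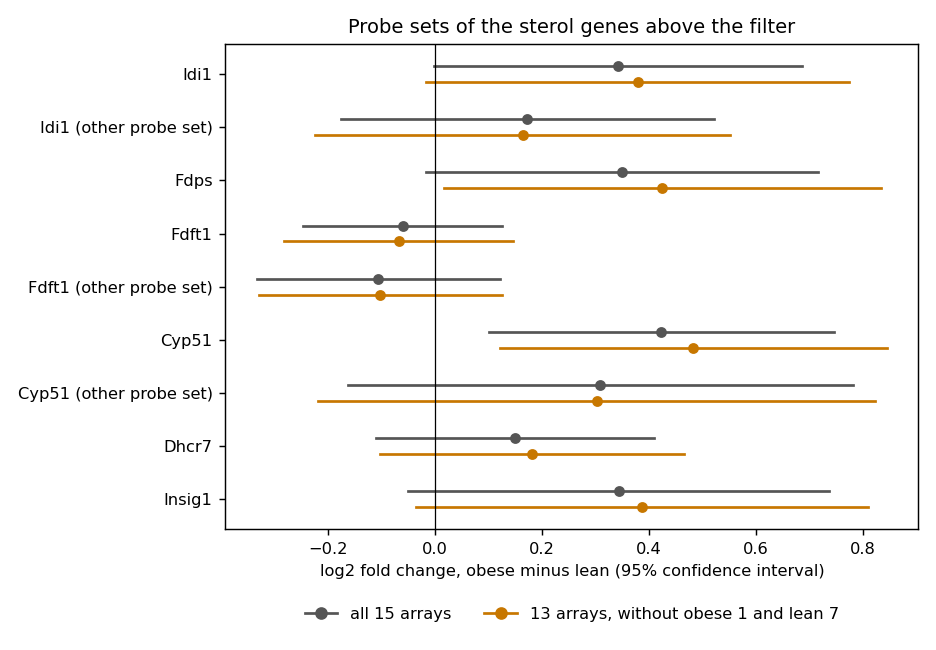
Log2 fold change, obese minus lean, of the 9 probe sets above the filter, with 95% confidence intervals, for all 15 arrays (grey) and for 13 arrays (orange). The intervals lie to the right of 0 for the brighter Cyp51 probe set in both, from 0.10 to 0.75 and from 0.12 to 0.84, and for Fdps with 13 arrays alone, from 0.02 to 0.83.

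Across rats, r differed widely between the pairs of these genes. Over the deviations of 13 rats from their group means, the 15 pairs of the 6 genes had a median Pearson r of 0.12, from -0.55 to 0.78, and 9 of 15 were positive. Over all 55266841 pairs of the 10514 genes the median r was 0.0035, and 7.26% of those pairs reached 0.5, as did 5 of the 15. The median r of the 15 pairs had an SE of 0.24, from leaving out 1 rat at a time. All of these values share the arrays and their scaling to 1 mean. The median r was 0.36 with arrays centred on their medians, 0.28 on residuals after the Gapdh ratio and 0.00056 after quantile normalization. Whether the genes move as 1 block was thus not settled.

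Idi1 and Cyp51 moved together most closely, with r = 0.78 (permutation p = 0.00557, adjusted over the 15 pairs 0.0835) and rho = 0.81 (permutation p = 0.00326, adjusted p = 0.0489). The r was 0.78 within the 6 obese rats (exact permutation p = 0.0833) and 0.77 within the 7 lean rats (exact permutation p = 0.0415). Without obese rat 6 and lean rat 8, whose deviations in Idi1 lay farthest from the median, r was 0.70, and it was 0.54 without obese rat 6 and lean rat 6, the farthest by level. Permutations were two-sided and kept rats within their group, with 100000 resamples for the 13 rats.

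Insig1 had an r of 0.54 with Fdps, 0.54 with Dhcr7 and 0.51 with Cyp51, with rho of 0.36, 0.61 and 0.31, and none passed after adjustment (permutation p = 0.0663, 0.0704 and 0.0955 for r, and 0.243, 0.0353 and 0.328 for rho; adjusted p = 0.239 each for r, and 0.703, 0.191 and 0.703 for rho). Without obese rat 6 and lean rat 2, whose deviations lay farthest from the median in Fdps, in Cyp51 and in Insig1, r of Insig1 was 0.05 with Fdps, -0.07 with Cyp51 and 0.72 with Dhcr7. Without obese rat 6 alone these values were 0.39, 0.37 and 0.58. With the rats chosen by level instead, obese rat 6 and lean rat 4, 6 or 1 in that order, they were 0.61, 0.27 and 0.61. The relations of Insig1 with Fdps and Cyp51 thus depended on which rats were left out. Idi1 and Dhcr7 went opposite ways, with r = -0.55 and rho = -0.60 (permutation p = 0.0713 and 0.0381, adjusted p = 0.239 and 0.191). Without obese rat 6 and lean rat 8 that r was -0.62, and without obese rat 6 and lean rat 6 it was -0.83. Idi1 and Fdps had r = 0.52 and rho = 0.37 (permutation p = 0.0867 and 0.234; adjusted p = 0.239 and 0.703), and r was 0.21 without obese rat 6 and lean rat 8 and 0.17 without obese rat 6 alone, so this relation rests on obese rat 6.

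By the brighter or single probe set, obese rat 6 was the highest of all 15 rats in Idi1, Fdps, Sqle, Cyp51 and Insig1 and the lowest in Fdft1. On the dimmer probe set of Cyp51 it had 1516, below obese rat 3 at 1629, and on that of Fdft1 it had 1716, inside the range of both groups. Leaving it out moved r of Fdft1 to 0.56 with Idi1 and 0.53 with Cyp51, against -0.07 and 0.04 with it. The macrophage marker mean of this rat, 1.13, was the highest of all rats, against 0.17 to 0.49 in the other 5 obese rats of the 13, and its Gapdh ratio of 0.64 lay inside the obese range of 0.35 to 1.07. The part of macrophage RNA in these values was not tested. The 2 probe sets of a gene had r of 0.67 for Cyp51, 0.63 for Idi1 and -0.22 for Fdft1 over the same deviations, a description of how well 1 gene repeats itself on these arrays.

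**Figure D3:**
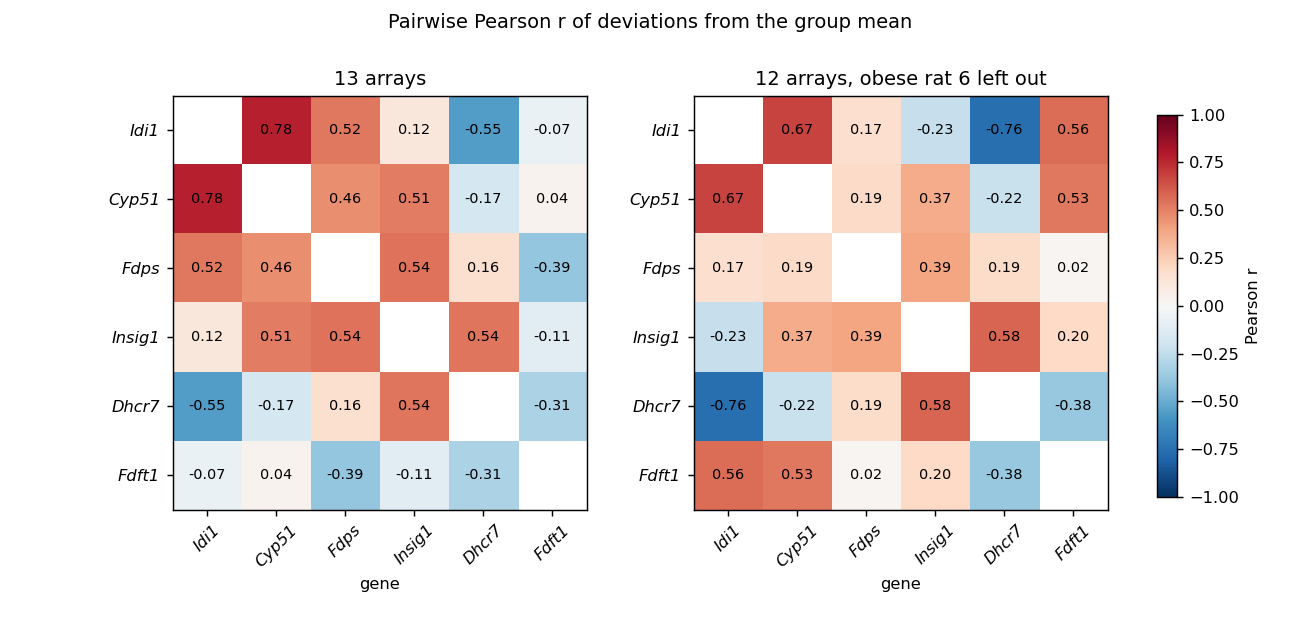
Pearson r of each pair of genes over deviations from the group mean, with 13 arrays (left) and without obese rat 6 (right), coloured from -1 (blue) to 1 (red). The Idi1 and Cyp51 pair stays the highest in both panels, at 0.78 and 0.67, while the pairs of Fdft1 with Idi1 and with Cyp51 are near 0 on the left and at 0.56 and 0.53 on the right.

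None of the 10 genes most like the mean of the 6 genes was in the pathway lists. Among 10508 other genes, ranked by r with the mean of the 6 standardised deviations over the 13 rats, the first 10 were Cox6b1 at 0.87, C15h14orf119 and Sec61b at 0.86, Fastkd2 at 0.86, Mrpl54 at 0.86, Cct5 at 0.85, Stmn3 at 0.84, Rtn4 at 0.84, Commd3 at 0.83 and Uqcrq at 0.82. Cox6b1 and Uqcrq encode subunits of the respiratory chain, Mrpl54 a mitochondrial ribosomal protein, Sec61b a subunit of the channel into the endoplasmic reticulum and Cct5 a chaperonin subunit. Of the pathway lists, the nearest gene was Msmo1, singled out after its value was seen, the demethylase that follows Cyp51 in the route, at rank 34 with r = 0.72. Npc2 had rank 164 (r = 0.60), Tmem97, a regulator of sterol transport induced by SREBP2, rank 181 (0.59) and Stard4 rank 5189 (-0.0053). Srebf2 had rank 1725 (0.29) and Srebf1 rank 5716 (-0.05). As lists, the other sterol arm enzymes had r = 0.62 with the mean of the 6 genes and the 3 sterol uptake and transport genes under SREBP2 had 0.68, or 0.46 and 0.56 without obese rat 6. The SREBP1 lipogenic genes had 0.42, the other mevalonate arm enzymes 0.03 and the SREBP pathway regulators 0.02. The efflux, esterification and LXR genes had -0.19 and the isoprenoid branch enzymes -0.39. Without obese rat 6 these 5 lists had 0.39, 0.25, 0.12, -0.64 and -0.31. These values are a description, since the mean rests on genes chosen with results known.

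The rest of the pathway was set beside these genes. Of 5 other mevalonate arm enzymes, 3 were above the filter, 2 positive and 1 negative with a median of 0.17, and 0 passed with 15 or 13 arrays. Pmvk, which adds the second phosphate to mevalonate, averaged a signal of 1670 ± 119 in the 6 obese rats, against 1162 ± 284 in the 7 lean rats (SD), without the pair. The groups did not overlap, obese above lean, as in 1.15% of all genes. Its log2 fold change was 0.53 ± 0.14 with 13 arrays and 0.49 ± 0.13 with 15 (SE; limma adjusted p = 0.0897 and 0.109). Mvk, the kinase ahead of it, had 0.17 and 0.12, and Acat2, a thiolase that joins acetyl-CoA units, had -0.27 and -0.19 (limma adjusted p = 0.298 to 0.774).

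Of 9 other sterol arm enzymes, 7 were above the filter, 4 positive and 3 negative with a median of 0.07, and 0 passed. Nsdhl, a sterol dehydrogenase, had a log2 fold change of 0.32 ± 0.11 with 13 arrays, Lss, which closes the sterol rings, had -0.24 ± 0.09, and Hsd17b7, a ketoreductase of the route, had -0.21 ± 0.17 (SE; limma adjusted p = 0.163, 0.208 and 0.538). Of 9 enzymes of the isoprenoid branch, which takes farnesyl diphosphate away from sterols, 8 were above the filter, 1 positive and 7 negative, with a median of -0.13 with 13 arrays and -0.14 with 15, and 0 passed. Pdss2, which makes the side chain of coenzyme Q, had -0.45 ± 0.14, Dhdds, which makes dolichol, had -0.48 ± 0.22, and Fntb, a farnesyltransferase subunit, had -0.13 ± 0.13 (SE; limma adjusted p = 0.131, 0.277 and 0.62 with 13 arrays).

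Of 12 regulators of the pathway, 11 were above the filter, 5 positive and 6 negative, with a median of -0.04 with 13 arrays, and 0 passed. Srebf2 averaged a signal of 4001 ± 1107 in the 6 obese rats, against 4092 ± 842 in the 7 lean rats (SD), without the pair. Its log2 fold change was -0.05 ± 0.19, and Srebf1 had -0.04 ± 0.15 (SE; limma adjusted p = 0.919 and 0.906). Scap, the escort, had 0.31 ± 0.20, Erlin1, a protein of the endoplasmic reticulum membrane, had 0.21 ± 0.10, and Ube2g2, a ubiquitin-conjugating enzyme, had 0.26 ± 0.15 (SE; limma adjusted p = 0.447, 0.279 and 0.404). Transcript levels do not measure how much SREBP2 protein is cleaved.

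Among the genes of efflux, esterification and the LXR pathway, Lpcat3 and Lipa rose without the pair. That is 2 of 12 genes, against 1.1% of all genes in either direction, with a median of 0.23 over the 12. With all 15 arrays 0 passed and the median was 0.20. Lpcat3, a phospholipid acyltransferase and LXR target, averaged a signal of 6654 ± 979 in the 6 obese rats, against 3988 ± 719 in the 7 lean rats (SD), and rose by 0.73 ± 0.13 on the log2 scale (SE; limma adjusted p = 0.0203). Lipa, the lysosomal acid lipase that frees cholesterol from its esters, averaged 8691 ± 3572 in the 6 obese rats, against 4630 ± 724 in the 7 lean rats (SD), and rose by 0.83 ± 0.18 (SE; limma adjusted p = 0.0453). Neither gene had an obese rat as low as the highest lean rat. With 15 arrays Lpcat3 had 0.63 and Lipa 0.72 (limma adjusted p = 0.0948 and 0.108). Leaving out 1 more rat kept the call of Lpcat3 in 13 of 13 fits and that of Lipa in 3 of 13, where it was lost without obese rat 2, 5, 7 or 8 or lean rat 2, 3, 4, 5, 6 or 8 (adjusted p up to 0.0958). Both calls were also lost without the filter, with the Gapdh ratio as a covariate and with the rat number as a block, where the log2 fold changes were 0.73, 0.77 and 0.76 for Lpcat3 and 0.83, 0.71 and 0.95 for Lipa. The call of Lipa was also lost with a pseudocount of 1 and with quantile normalization, at 0.85 and 0.78.

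Soat1, which esterifies cholesterol and is abundant in macrophages, averaged a signal of 1265 ± 556 in the 6 obese rats, against 646 ± 123 in the 7 lean rats (SD), with a log2 difference of 0.82 ± 0.20 (SE; limma adjusted p = 0.0611). In the same fit 6 of 12 macrophage markers rose and all 12 were positive, with a median of 0.66. Of all genes, 1.1% passed in either direction in that fit and 46.7% were positive. With 15 arrays 0 of the 12 markers passed, and their median was 0.56. Macrophages hold much acid lipase and esterified cholesterol, and the part of macrophage RNA in these values was not tested. Of the sterol transport genes under SREBP2, 3 of 6 were above the filter and 0 passed. Npc2, which hands cholesterol out of lysosomes, had 0.45 ± 0.11, Tmem97 had -0.11 ± 0.15 and Stard4, a cytosolic sterol carrier, had 0.03 ± 0.10 (SE; limma adjusted p = 0.0734, 0.753 and 0.902).

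Among 10 lipogenic targets of the sister factor SREBP1, Scd, the stearoyl-CoA desaturase, alone rose without the pair, by 3.06 ± 0.34 (SE; limma adjusted p = 0.00257). With 15 arrays 0 of the 10 passed, and Scd had 2.60 ± 0.50 (SE, limma adjusted p = 0.0948). Without obese rat 1 alone Scd had 3.10, and without lean rat 7 alone it had 2.56 (limma adjusted p = 0.000609 and 0.0823). Me1, which makes NADPH, had 0.28 ± 0.09 and Gpam, the first acyltransferase of glyceride synthesis, had 0.38 ± 0.14 (SE; limma adjusted p = 0.149 and 0.171). The median over the 10 was 0.21 with 13 arrays and 0.18 with 15.

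**Figure D4:**
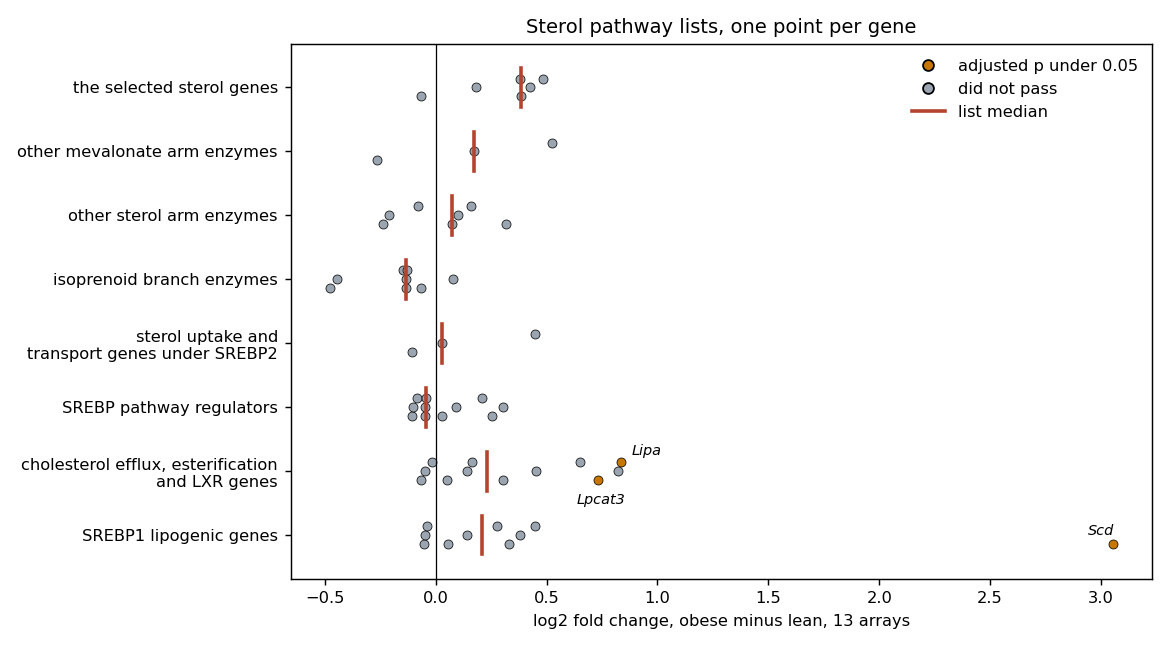
Log2 fold change, obese minus lean, with 13 arrays, of each gene above the filter in 8 lists, 1 point per gene, with the list median as a red bar; orange points passed an adjusted p of 0.05. Lpcat3 at 0.73, Lipa at 0.83 and Scd at 3.06 are the points that passed, and the selected sterol genes have a median of 0.38, with Fdft1 left of 0.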

How the data were processed

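The deposited table holds 1 linear intensity per probe set and array. Per the submitters' processing notes it came from MAS5, whose version is not given in the sources used here. The authors' scaling gave every array the same 2% trimmed mean, so the deposited intensity values were used as they are. RNA input was 6 micrograms per the labels and 5 per the design text. Signals became log2(signal + 79.9), and probe sets with a mean above the 40th percentile were kept. All were fitted together with limma 3.58.1 in R 4.3.3 (lmFit, eBayes), obese minus lean, with Benjamini-Hochberg adjustment over 18625 probe sets, two-sided. Each gene was represented by the probe set with the highest mean. Symbols come from the platform annotation, updated by Entrez ID for 20764 of 20826 probe sets naming 1 gene.

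The genes, lists and tests were chosen with earlier results of these data known. Text names every probe set of the 8 genes, Srebf1 and Srebf2, up to 3 of each list with the smallest p, and the 10 most alike. The limma and permutation steps were tested on simulated data. Of added changes of 0.5 on the log2 scale, limma recovered 36% with 15 arrays and 44% with 13. Changes of that size were thus mostly missed. Of changes of 1 it recovered 86% and 84%, and the false share was 8.05% and 4.09%. Correlations and promoters were computed in Python 3.11.15 with numpy 2.4.6, and figures with matplotlib 3.10.9. Correlations cover the 6 genes above the filter rather than 8, so 15 pairs. The number of arrays limits the precision.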

Additional observations from a re-analysis of the deposited data

Results flagged for a closer look

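In 44 groups of arrays tested for a rat far from the others of its group, 6 had one. The groups were each probe set and the Gapdh ratio, obese and lean, with 15 and 13 arrays. Chance gives about 1 in 20 for separate groups, but these share rats, so the figures cannot be compared directly. The measure is the gap to the nearest rat over the range of the group. Obese rat 6 stood apart among the 7 obese rats in Idi1, at 11.19 against 10.5 for the next on the log2 scale (gap 0.617 of the range), and in Fdps, at 13.07 against 12.41 (gap 0.601). It also stood apart below the others in the brighter probe set of Fdft1, at 11.67 against 11.9 (gap 0.573). Lean rat 4 stood apart in Sqle, at 8.884 against 7.676, with a gap of 0.678 of the range among the 8 and among the 7 lean rats. Lean rat 8 stood apart below the others in the dimmer probe set of Fdft1 among the 7 lean rats, at 10.52 against 10.82 (gap 0.62).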

How the results depend on the processing

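The count of sterol genes passing stayed at 0 in all 26 alternatives with 15 arrays and all 24 with 13, among them pseudocounts of 1 and 291.2, quantile normalization, median centring, no filter or a 60th percentile filter, the Gapdh ratio, array weights, trend and robust, the mean over probe sets and each rat left out. With the rat number as a replicate block the count was 0 as well, and the log2 fold change of Cyp51 was 0.42 with 15 arrays and 0.47 with 13. Deviations of same-numbered rats correlated from -0.11 to 0.24. Rats of unlike number were not set beside them, so whether the numbers pair rats in some way was not settled. The lowest adjusted p of any of the 6 genes was 0.105, for Cyp51 with 13 arrays without lean rat 2. One direction turned: median centring gave Fdft1 0.0412 with 15 and 0.0481 with 13 arrays. Median centring moved the median of all probe sets to 0.06 and 0.07, against -0.04 in both without it; relative to that median, Fdft1 was at -0.02 and -0.03. Over all probe sets with 13 arrays, 189 passed, 135 higher and 54 lower. With all 15 arrays 0 passed, against 245 without obese rat 1 alone and 1 without lean rat 7 alone. Leaving out any other single rat from the 15 gave 0. The calls without the pair thus came with the removal of obese rat 1 far more than of lean rat 7. With 13 arrays median centring gave 389, 357 higher and 32 lower, and quantile normalization gave 124. The Gapdh ratio gave 14, the block 3, no filter 46 and the filter at the 60th percentile 334. The median r of the 15 pairs was 0.12, and 0.36 with median centring; leaving out 1 rat gave 0.01 to 0.24, and adding Sqle, decided after seeing the data, gave 0.16. The Gapdh difference was -0.27 with 15 and -0.33 with 13 arrays. The cause of these shifts was not tested. Sqle, near the 10th percentile of signals in most lean rats, is limited by low signal.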
